A study of Homo sapiens with 12 samples.

Results

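The genes described here encode the SEC61 translocon, the channel through which new proteins enter the endoplasmic reticulum, and the signal sequence receptor that sits beside it. They were measured in 293T cells, a human embryonic kidney line, on 12 oligonucleotide arrays with 54675 probe sets each. The members are SEC61A1, SEC61A2, SEC61B, SEC61G, SEC62, SEC63, SSR1, SSR2, SSR3 and SSR4, each taken with every probe set that the array annotation gives to that gene symbol alone. This gave 29 probe sets for 9 of the 10 genes; no probe set is listed with SEC61G alone, so SEC61G was not analysed here. The list was chosen by the signals of SEC61A2, which differed between the 2 vectors that supply CU1276, so values of the hairpin vector against the tRNA vector are given as a description, with no test.

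There were 3 groups of 4 biological replicates, and all were 293T cells collected 48 hours after transfection with polyethylenimine. The hairpin vector encodes an artificial hairpin for CU1276. The tRNA vector carries chr1.tRNA68-Gly(GCC), the tRNA gene whose transcript is processed to CU1276 according to the labels. The empty vector has neither. CU1276 itself, the share of cells that took up a vector and the promoters of the vectors were not analysed here. In RNA of a whole culture, a difference in few cells and a smaller difference in all of them cannot be told apart.

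The SEC61 complex consists of an alpha subunit that forms the pore, for which SEC61A1 and SEC61A2 are alternative genes, and of the small beta and gamma subunits encoded by SEC61B and SEC61G. Ribosomes dock on it and feed the growing chain through the pore while its signal sequence is recognised. SEC62 and SEC63 are membrane proteins that help the pore to open for precursors that do so poorly on their own, SEC63 by recruiting the chaperone BiP through its J domain. SSR1, SSR2, SSR3 and SSR4 encode the alpha, beta, gamma and delta subunits of the signal sequence receptor, also called the translocon-associated protein complex, which helps some signal sequences to insert.

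Values are MAS5 signals, a linear intensity per probe set that the authors scaled to a common level on each array. Signals of different probe sets are not compared with each other. Fold changes are given on the log2 scale with the limma standard error after ±, for 4 arrays per group, and adjusted p values are Benjamini-Hochberg values over all 32768 tested probe sets. All 29 member probe sets lay above the filter on dim probe sets, a geometric mean signal of 43.3. Arrays had median signals of 75.9 to 103.7. The RNA integrity ratio of 3' to 5' GAPDH signal was 1.20 to 1.67 in hairpin vector cells, 1.25 to 1.52 in tRNA vector cells and 1.18 to 1.47 in empty vector cells. The highest ratio of each group was that of replicate number 1. NEFL, NEFM, LIN28B and PAX2, which 293T cells are known to express, were above the filter. Their signals were 2457 to 3156, 3872 to 5486, 4139 to 6030 and 66.0 to 237 in this order. Of markers of other cell types, 0 of 4 for T and myeloid cells, 2 of 3 for B cells (summed signals of 167 to 363) and 3 of 4 for fibroblasts (COL1A1 at 607 to 1105) were above the filter. Passing the filter alone thus does not tell these cell types apart.

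SEC61A2, the alternative gene for the pore subunit, had 3 probe sets, and they differed from each other in which group was high. In the probe set 228747_at the signals were 830.1, 1059, 838 and 793 in hairpin vector cells, 562, 653, 482 and 510.2 in tRNA vector cells, and 678, 759, 715 and 803 in empty vector cells. All 4 tRNA vector arrays lay below all 4 arrays of either other group, and the hairpin vector arrays overlapped those of the empty vector. The hairpin vector arrays averaged 880.1 ± 121, those of the tRNA vector 552 ± 75.2 and those of the empty vector 739 ± 53.9 (SD, n = 4 each).

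Between the vectors, the log2 difference of 228747_at, hairpin over tRNA vector, was 0.67 ± 0.13, or 1.60 times the signal. This is the contrast on which the list was chosen, and it is given with no test. It was 0.56 and 0.70 for the arrays numbered 1 and 2, and 0.72 on average for those numbered 3 and 4. Relative to empty vector cells the same probe set stood at 0.25 ± 0.13 in hairpin vector cells (95% interval -0.030 to 0.52, limma adjusted p = 0.9999) and at -0.43 ± 0.13 in tRNA vector cells (-0.70 to -0.15, limma adjusted p = 1). These values use the arrays of the contrast that chose the gene, so they are not independent of that choice. With the tRNA vector the log2 differences in the 4 same-number comparisons were -0.27, -0.22, -0.57 and -0.65. Their shared sign follows from the groups not overlapping and adds nothing to it.

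The brightest SEC61A2 probe set, 219499_at, did not show this order. Its signals were 990.0, 1046, 1096 and 1062 in hairpin vector cells, 1061, 1005, 1386 and 1014 in tRNA vector cells, and 901, 1077, 1093 and 1143 in empty vector cells. The 3 groups overlapped, and array 3 of the tRNA vector was the highest. The log2 difference from the empty vector was -0.0015 ± 0.12 in hairpin vector cells (95% interval -0.25 to 0.25, limma adjusted p = 0.9999) and 0.077 ± 0.12 in tRNA vector cells (-0.18 to 0.33, limma adjusted p = 1). Hairpin over tRNA vector, it was -0.078 ± 0.12.

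The dimmest SEC61A2 probe set, 230215_at, was lowest in hairpin vector cells. Its signals were 114, 68.2, 127 and 75.8 in hairpin vector cells, 93.9, 219.8, 187 and 113 in tRNA vector cells, and 137, 278, 135 and 166 in empty vector cells. All 4 hairpin vector arrays lay below all 4 empty vector arrays and overlapped those of the tRNA vector. The log2 difference from the empty vector was -0.88 ± 0.34 in hairpin vector cells (95% interval -1.61 to -0.14, limma adjusted p = 0.9999) and -0.24 ± 0.34 in tRNA vector cells (-0.98 to 0.50, limma adjusted p = 1). The value for hairpin vector cells was -0.64 without empty vector array 2 and -1.03 without hairpin vector array 3. Its same-number differences were uneven, at -0.26, -2.03, -0.093 and -1.13. The value for tRNA vector cells was -0.0065 without empty vector array 2 and -0.44 without tRNA vector array 2. Hairpin over tRNA vector it was -0.64 ± 0.34, opposite in sign to 228747_at. Over the 12 arrays the log2 signals of 228747_at correlated with those of 219499_at at r = -0.30 and with those of 230215_at at r = -0.32, and the other pair at r = 0.24. These are descriptions over arrays that share processing. Where in the gene the probes of each set lie is not given in the sources used here.

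**Figure D1:**
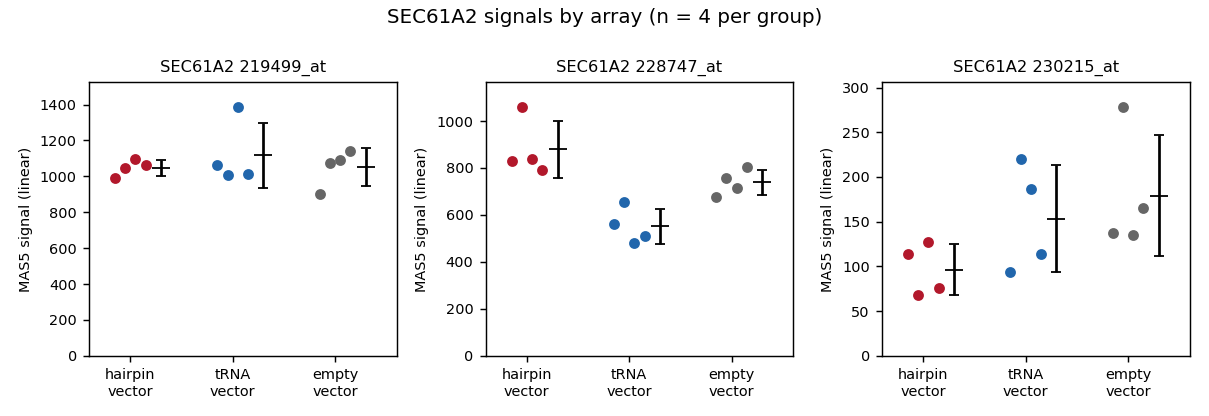
MAS5 signal (linear axis from 0) of the 3 SEC61A2 probe sets in each array, by vector, with the mean and SD of 4 arrays to the right of each group. In 228747_at the tRNA vector arrays (482 to 653) lie below those of the hairpin vector (793 to 1059) and of the empty vector (678 to 803), an order that 219499_at and 230215_at do not show.

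Promoter sequences of the members were taken from RefSeq (GRCh38.p14), which gave 15 windows of 300 bases for all 10 genes, 50 of those bases after the annotated start. They were searched on both strands for 3 motifs of the unfolded protein response, the programme by which cells raise the capacity of the endoplasmic reticulum. The unfolded protein response element, TGACGTGG, was found in 3 of the 15 windows, in SEC62, SSR3 and SSR4, and in 0.729% of 35116 windows of the same length. The ER stress response element was in 0 of 15 and in 0.0769% of all windows, and its second form, called II, was in 0 of 15 and in 0.0541%. All 3 motifs share the letters CCACG on 1 strand. The 250 bases before the start are shown for the 3 genes with a match and for SEC61A2, whose probe sets diverged and whose windows have no match. The matched letters are in capitals. Each match is on the strand opposite to the gene, so it reads as the reverse complement, and it begins 17 bases before the start in SEC62, 129 in SSR4 and 41 in SSR3. In SSR4 and SSR3, which have several annotated starts, 1 window each holds it. SEC61A2 has another annotated start within the bases shown.
SEC61A2, chr10:12129427-12129676, plus strand: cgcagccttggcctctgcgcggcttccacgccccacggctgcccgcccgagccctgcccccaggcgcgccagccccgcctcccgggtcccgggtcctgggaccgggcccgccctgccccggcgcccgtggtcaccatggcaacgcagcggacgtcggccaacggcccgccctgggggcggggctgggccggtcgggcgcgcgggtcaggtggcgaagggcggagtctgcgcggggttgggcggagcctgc
SEC62, chr3:169966557-169966806, plus strand: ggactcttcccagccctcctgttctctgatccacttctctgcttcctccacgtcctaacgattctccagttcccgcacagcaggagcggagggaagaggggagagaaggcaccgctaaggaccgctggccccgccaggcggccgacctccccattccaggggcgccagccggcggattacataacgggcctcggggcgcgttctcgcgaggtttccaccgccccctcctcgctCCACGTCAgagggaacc
SSR3, chr3:156554126-156554375, minus strand: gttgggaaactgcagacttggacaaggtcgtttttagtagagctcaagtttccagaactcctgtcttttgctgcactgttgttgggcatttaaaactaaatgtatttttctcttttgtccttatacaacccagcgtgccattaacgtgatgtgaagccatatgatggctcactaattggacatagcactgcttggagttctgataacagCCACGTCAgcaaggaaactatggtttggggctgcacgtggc
SSR4, chrX:153794418-153794667, plus strand: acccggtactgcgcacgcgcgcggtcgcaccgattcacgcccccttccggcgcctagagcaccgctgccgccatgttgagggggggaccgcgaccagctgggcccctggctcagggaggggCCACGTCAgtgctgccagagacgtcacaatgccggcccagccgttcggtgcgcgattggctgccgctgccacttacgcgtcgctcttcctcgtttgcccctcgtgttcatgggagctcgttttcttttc
A match is a description of the letters, and the arrays did not measure binding.

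Against the empty vector, 0 of the 29 member probe sets passed limma in hairpin vector cells and 0 in tRNA vector cells, where 0.0% of all tested probe sets passed in either comparison. With the level of control RNA as a block, described further on, 0 members passed in either, against 0.00916% of all probe sets in hairpin vector cells and 0.0122% in tRNA vector cells. The smallest adjusted p among the members was 0.9999 in hairpin vector cells and 1 in tRNA vector cells. At an unadjusted limma p under 0.05 there was 1 member in hairpin vector cells, 230215_at, against 867 of all probe sets (2.65%). With the tRNA vector there was also 1 member, 228747_at, against 1238 (3.78%). Both are SEC61A2. With the hairpin vector 11 members had a higher and 18 a lower mean than the empty vector, with a median of -0.018 on the log2 scale, against 0.0031 over all tested probe sets, of which 50.8% were higher and 49.2% lower. With the tRNA vector 14 were higher and 15 lower, with a median of -0.0012, against -0.00040 over all, of which 49.9% were higher and 50.1% lower.

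Non-overlapping groups were counted as well. With the hairpin vector 0 members lay above the empty vector in all arrays and 1 lay below, against 1.06% of all probe sets above and 1.06% below. With the tRNA vector these counts were 0 and 1, against 1.17% above and 1.43% below. The member below was 230215_at with the hairpin vector and 228747_at with the tRNA vector. Both are of the gene that chose the list, so nothing is read from these counts. For the 9 brightest probe sets, 1 per gene, the 95% intervals reached at most from 0.775 to 1.42 times the empty vector in hairpin vector cells, and from 0.810 to 1.34 times in tRNA vector cells. Larger differences in those probe sets lie outside the intervals, each a single interval not adjusted for the number of probe sets. Dimmer probe sets are not covered. On the log2 scale the interval of 230215_at of SEC61A2 reached -1.61 in hairpin vector cells. That of 228747_at, of the same gene, reached -0.70 in tRNA vector cells. The 2 comparisons share their empty vector arrays, so their values are not independent.

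**Figure D2:**
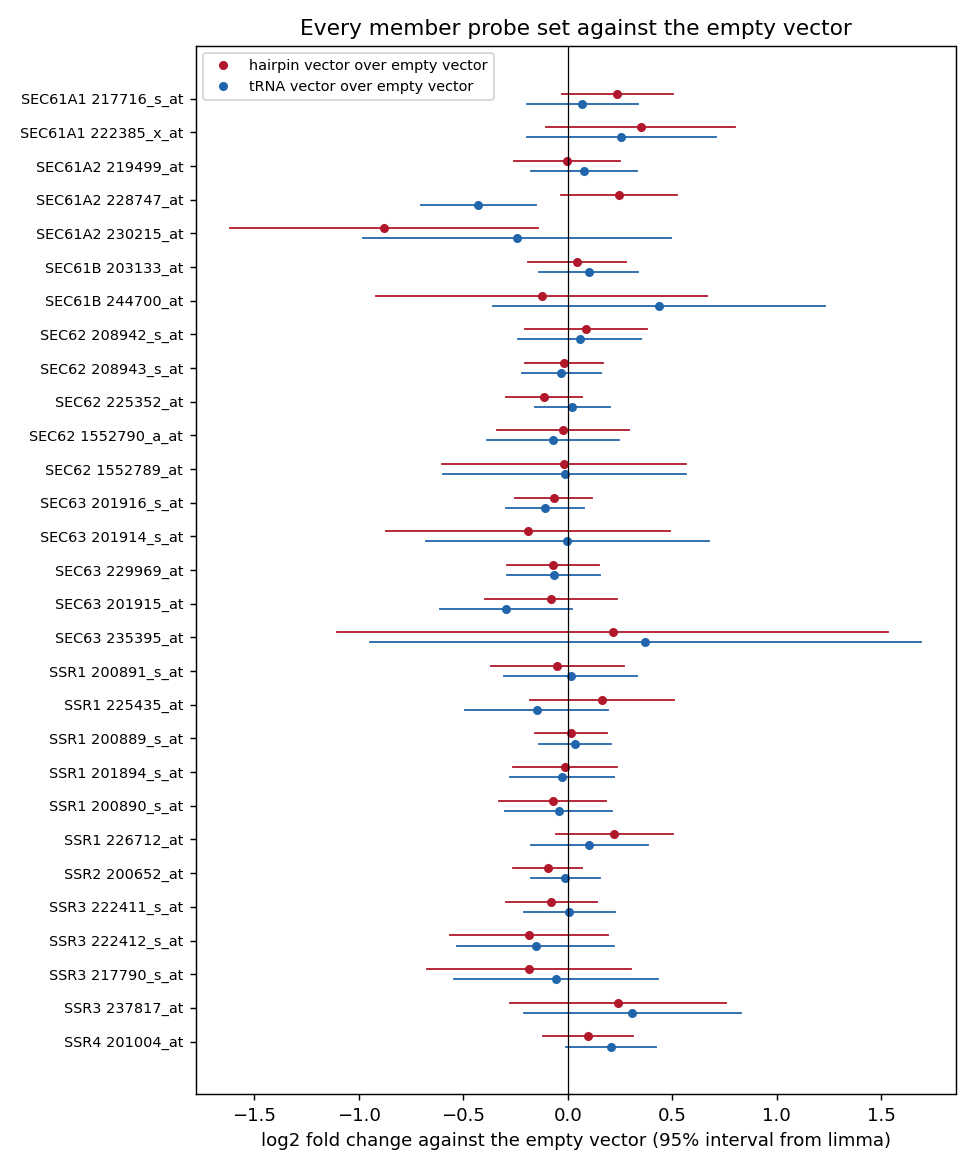
Log2 difference of each of the 29 member probe sets from the empty vector (horizontal axis), with 95% limma intervals, for the hairpin vector and the tRNA vector. All intervals include 0 except 230215_at in hairpin vector cells and 228747_at in tRNA vector cells. Both are of SEC61A2, the gene by whose signals the list was chosen.

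SEC61A1, the main gene for the pore subunit, had 2 probe sets, and both had a higher mean in both kinds of CU1276 vector cells than in empty vector cells. The brighter, 217716_s_at, gave 1962, 2014, 1811 and 1969 in hairpin vector cells, 1772, 1772, 1595 and 1768 in tRNA vector cells, and 1662, 1346, 2193 and 1487 in empty vector cells. The empty vector arrays spread the most and included both the lowest and the highest value of the 12. Against the empty vector its log2 fold change was 0.24 ± 0.12 in hairpin vector cells (95% interval -0.029 to 0.50, limma adjusted p = 0.9999) and 0.070 ± 0.12 in tRNA vector cells (-0.20 to 0.34, limma adjusted p = 1).

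The hairpin vector arrays of 217716_s_at all lay above those of the tRNA vector, by 0.15, 0.18, 0.18 and 0.16 in the 4 same-number comparisons. That these share a sign follows from the lack of overlap and adds nothing to it. The other SEC61A1 probe set, 222385_x_at, overlapped in all groups. It averaged 883 ± 248 in hairpin vector cells, 801 ± 35.1 in tRNA vector cells and 688 ± 195 in empty vector cells (SD, n = 4 each), at 0.35 ± 0.21 and 0.26 ± 0.21 against the empty vector. Its suffix marks a set whose probes may also match other transcripts.

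SEC61B, the beta subunit, is represented by 203133_at. Its signals were 7245, 5020.5, 5625 and 5789 in hairpin vector cells, 6833, 5341, 6231 and 6043 in tRNA vector cells, and 5893, 5040.1, 5854 and 5991 in empty vector cells. The array numbered 2 was the lowest in each group, and the groups overlapped. On the log2 scale its difference from the empty vector was 0.046 ± 0.11 in hairpin vector cells (limma, adjusted p = 0.9999) and 0.100 ± 0.11 in tRNA vector cells (limma adjusted p = 1). The dim probe set 244700_at ran from 44.0 to 63.6 in hairpin vector cells, from 62.3 to 112 in tRNA vector cells and from 44.2 to 70.8 in empty vector cells. At 0.44 ± 0.37 in tRNA vector cells its interval, -0.36 to 1.23, was among the widest.

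SEC62, which assists the pore, had 5 probe sets, with log2 fold changes of -0.11 to 0.088 in hairpin vector cells and -0.069 to 0.057 in tRNA vector cells. The brightest, 208942_s_at, gave 5024, 3570.2, 3703 and 4224 in hairpin vector cells, 4966, 3859, 3450.2 and 3891 in tRNA vector cells, and 4585, 4158, 3362 and 3432 in empty vector cells. In each group the array numbered 1 was the highest, by more than the groups differed. In 225352_at the signals were 1539, 1600.4, 1457 and 1471 in hairpin vector cells, 1692, 1651, 1697 and 1618 in tRNA vector cells, and 1839, 1667, 1543 and 1523 in empty vector cells. Its hairpin vector arrays lay below all those of the tRNA vector (-0.13 ± 0.085 on the log2 scale) and overlapped those of the empty vector (-0.11 ± 0.085).

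SEC63, the partner of BiP, also had 5 probe sets. The brightest, 201916_s_at, gave 5416, 4559, 4470.2 and 4549 in hairpin vector cells, 5134, 4499, 4319 and 4474 in tRNA vector cells, and 5459.9, 4968, 4610.4 and 4842 in empty vector cells. Each group again had its highest value in the array numbered 1, and the groups overlapped. It was lower than the empty vector in all 4 same-number comparisons with either vector, by small amounts. Both vectors were set against the same 4 empty vector arrays, so nothing is read from the shared sign. Against the empty vector its log2 fold change was -0.068 ± 0.087 in hairpin vector cells (limma, adjusted p = 0.9999) and -0.11 ± 0.087 in tRNA vector cells (limma adjusted p = 1).

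The SEC63 probe set 201915_at was the next lowest member in tRNA vector cells after 228747_at. It gave 488, 359, 412 and 445 in hairpin vector cells, 429, 298, 358 and 387 in tRNA vector cells, and 489.9, 444, 441 and 417 in empty vector cells. The tRNA vector array numbered 1 exceeded the lowest empty vector array, so the groups overlapped. It stood on the log2 scale at -0.080 ± 0.15 in hairpin vector cells and -0.30 ± 0.15 in tRNA vector cells (95% interval -0.61 to 0.020, limma adjusted p = 1). The remaining sets, 201914_s_at, 229969_at and the dim 235395_at, stood at -0.19, -0.071 and 0.22 in hairpin vector cells and at -0.0012, -0.068 and 0.37 in tRNA vector cells. In 235395_at the signal of hairpin vector array 1 was 14.0, where the other 11 arrays had 43.4 to 126.

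Among the subunits of the signal sequence receptor, SSR4, the delta subunit, had the largest difference from the empty vector in a brightest probe set in tRNA vector cells. Its signals in 201004_at were 11513, 9594, 11686 and 11408 in hairpin vector cells, 11463, 10926, 12496 and 12688 in tRNA vector cells, and 11921, 8526, 10698 and 10299 in empty vector cells. The empty vector array numbered 1 lay within the range of the tRNA vector, and array 2 was the lowest of its group in all 3 groups. On the log2 scale its difference from the empty vector was 0.099 ± 0.10 in hairpin vector cells (limma, adjusted p = 0.9999) and 0.21 ± 0.10 in tRNA vector cells (95% interval -0.0085 to 0.42, limma adjusted p = 1).

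SSR1, the alpha subunit, had 6 probe sets. The brightest, 200891_s_at, averaged 6971 ± 1231 in hairpin vector cells, 7262 ± 1098 in tRNA vector cells and 7226 ± 1351 in empty vector cells (SD, n = 4 each), and its arrays numbered 1, at 8586 to 8954, were above all others. Over the 6 sets the log2 fold change was -0.072 to 0.22 in hairpin vector cells and -0.15 to 0.10 in tRNA vector cells, 3 of 6 positive in each case. In 226712_at each hairpin vector array was above the empty vector array of the same number, by 0.16, 0.24, 0.21 and 0.28, while the ranges, 537 to 673 in hairpin vector cells and 464 to 553 in empty vector cells, overlapped (limma adjusted p = 0.9999). In 225435_at the hairpin vector was above the tRNA vector in the 4 same-number comparisons, by 0.46, 0.51, 0.13 and 0.15, while the groups overlapped. Arrays were not clearly paired at every number, so nothing is read from the shared signs in these probe sets.

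SSR2, the beta subunit, had the single probe set 200652_at. It gave 5421, 6440.4, 5357 and 5629.6 in hairpin vector cells, 5815, 6215, 5727 and 6435 in tRNA vector cells, and 6360.3, 6367, 5814 and 5829 in empty vector cells. The 3 groups overlapped and spanned 1.20 times from the lowest to the highest array. Against the empty vector its log2 fold change was -0.096 ± 0.078 in hairpin vector cells (limma, adjusted p = 0.9999) and -0.011 ± 0.078 in tRNA vector cells (limma adjusted p = 1).

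SSR3, the gamma subunit, had 4 probe sets, and all 4 had a lower mean in hairpin vector cells than in tRNA vector cells, by 0.030 to 0.13 on the log2 scale. This sign turned for 3 of the 4 when a single array was left out. Without tRNA vector array 1, 217790_s_at went to 0.023 and 222412_s_at to 0.085. Without tRNA vector array 4, 237817_at went to 0.096. In 222412_s_at the arrays numbered 1 were above all others, and hairpin vector array 1 was kept. The brightest, 222411_s_at, gave 4932, 4771, 4523 and 4293 in hairpin vector cells, 5329, 5003, 4728 and 4584 in tRNA vector cells, and 5474, 5665, 4329.6 and 4221 in empty vector cells. All arrays numbered 1 and 2 lay above all those numbered 3 and 4, whatever the vector. Over the 4 sets the differences from the empty vector ran from -0.18 (217790_s_at) to 0.24 (237817_at) in hairpin vector cells and from -0.15 (222412_s_at) to 0.31 (237817_at) in tRNA vector cells. For 222411_s_at it was -0.078 ± 0.10 in hairpin vector cells (limma, adjusted p = 0.9999) and 0.0070 ± 0.10 in tRNA vector cells (limma adjusted p = 1).

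Between the vectors, the contrast from which the list comes, 11 members were higher in hairpin vector cells and 18 lower, against 51.0% and 49.0% of all tested probe sets. Groups did not overlap for 2 higher members, 228747_at of SEC61A2 and 217716_s_at of SEC61A1, against 1.46% of all tested probe sets. The only lower member without overlap was 225352_at of SEC62, against 1.17%. Nothing is read from these counts. Over the whole array limma called 0 probe sets in this contrast (0.0%), with 1271 (3.88%) at an unadjusted p under 0.05. It called 6 (0.0183%) with the replicate number as a block and 8 (0.0244%) with the level of control RNA as a block.

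In several members the arrays divided by replicate number. Bacillus transcripts spiked in before labelling, read by 24 probe sets, gave arithmetic means of 1941 to 2061 for replicate number 1, 371 to 431 for number 2 and 19.8 to 27.6 for numbers 3 and 4. These levels followed the numbers, and each level held the 3 vectors in equal share. The lowest level is under the filter signal. In 4 of the 29 member probe sets the 3 arrays numbered 1 were above the other 9, against 5.6% of all probe sets, and in 1 they were below, against 7.26%. The 4 were 208942_s_at of SEC62, 201916_s_at of SEC63, 200891_s_at of SSR1 and 222412_s_at of SSR3.

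The member below was 201914_s_at of SEC63, so 2 probe sets of the same gene differed with the number in opposite directions. Its signals were 779, 1208 and 1307 in the arrays numbered 1 in hairpin, tRNA and empty vector cells, against 1775 to 2461 in the other 9 arrays. The arrays numbered 1 and 2 were above those numbered 3 and 4 in 1 member, 222411_s_at of SSR3, against 1.45% of all probe sets. They were below in 2 members, 201894_s_at and 200890_s_at of SSR1, against 2.36%. Each vector is present at each number, but the arrays of a number did not differ equally in the 3 groups. In 201914_s_at the log2 difference of hairpin from empty vector cells was -0.75 at number 1 and 0.0074, -0.12 and 0.11 at numbers 2 to 4. With hairpin vector array 1 left out, the group difference was 0.17. That value keeps empty vector array 1, the lowest of its group, so the 2 groups then differ in their numbers. The source of these differences was not tested.

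**Figure D3:**
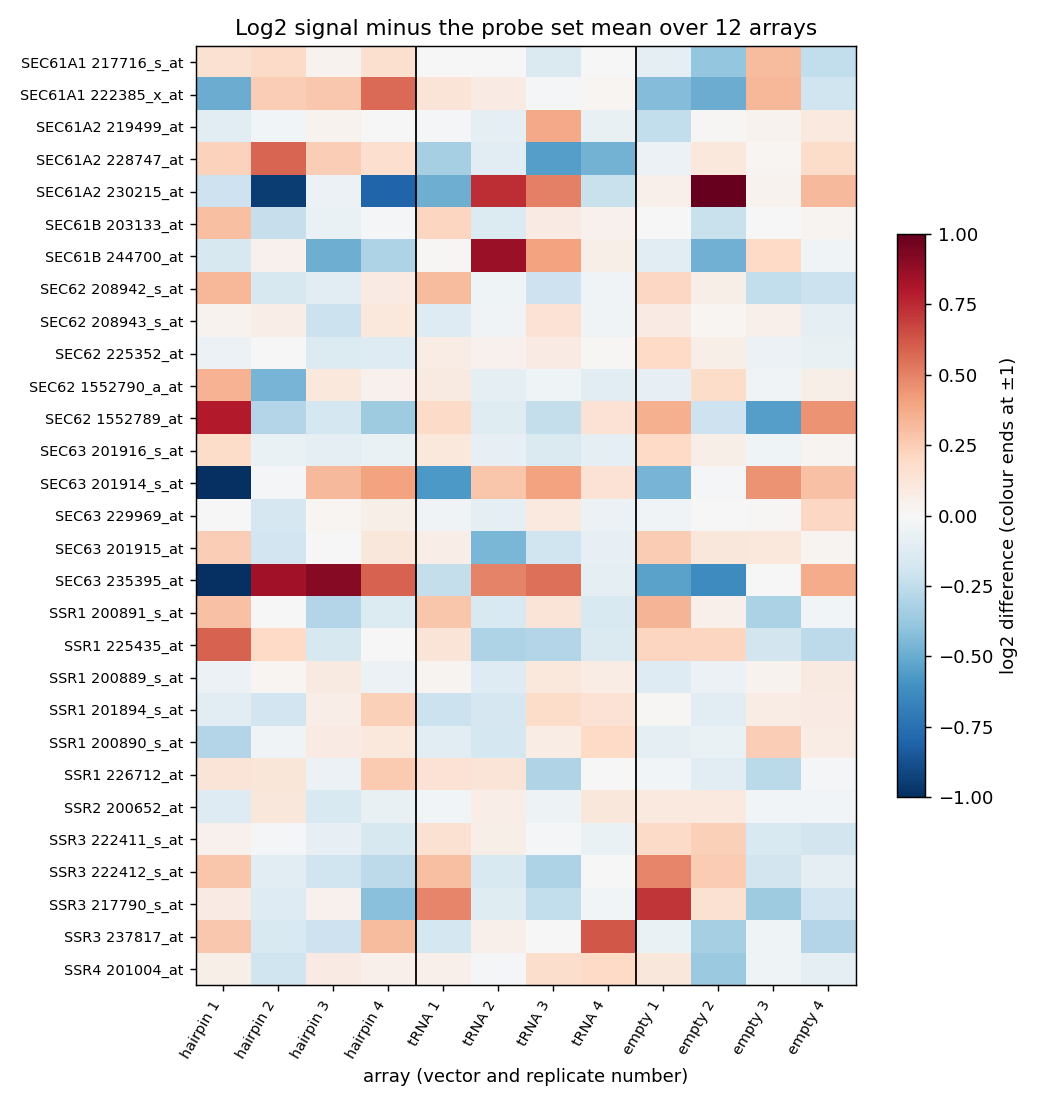
Log2 signal of each member probe set (rows) in each array (columns, by vector and replicate number) minus the mean of that probe set over the 12 arrays; red is higher and blue lower, and the colours end at a difference of 1. The column numbered 1 of each vector is low in 201914_s_at of SEC63 and high in 201916_s_at of the same gene, while 228747_at of SEC61A2 is low in the 4 tRNA vector columns.

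The other machinery of protein entry into the endoplasmic reticulum was described by 7 lists with 61 genes, of which 58 had a tested probe set with 1 symbol. Against the empty vector, 0 of these genes passed limma in hairpin vector cells and 0 in tRNA vector cells. With the hairpin vector 36 genes had a higher mean and 22 a lower mean. With the tRNA vector 41 were higher and 17 lower. Over all tested probe sets, not only the brightest of each gene, 50.8% and 49.9% were higher in hairpin and tRNA vector cells. Arrays did not overlap for 1 lower gene in hairpin vector cells, SRP19, against 1.06% of all tested probe sets, and for 2 higher genes in tRNA vector cells, SRP14 and RRBP1, against 1.17%. Genes of a list share arrays, and no test was made of the lists.

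The signal recognition particle, which brings ribosomes with a signal sequence to the membrane, and its receptor had 8 measured genes. With the hairpin vector 4 were higher and 4 lower (median 0.026), and in tRNA vector cells 7 were higher and 1 lower (median 0.029), where the medians over all genes were 0.0042 and 0.0030. SRP19, a subunit that helps assemble the particle, gave 5010.1, 4677, 4743 and 4853 in hairpin vector cells, 5984, 5411, 5534 and 5181 in tRNA vector cells, and 6074, 5257, 5424 and 5248 in empty vector cells. Its 4 hairpin vector arrays lay below all arrays of both other groups, at -0.19 ± 0.073 against the empty vector (limma adjusted p = 0.9999). SRP14, of the domain that pauses translation, stood at 0.10 ± 0.068 in hairpin vector cells and at 0.13 ± 0.068 in tRNA vector cells, where its arrays did not overlap those of the empty vector. SRPRB, a receptor subunit, was at 0.12 ± 0.19 in tRNA vector cells.

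TRAM proteins and the factors of the translocon for proteins with many membrane segments had 9 measured genes, 5 higher and 4 lower in hairpin vector cells and 6 higher and 3 lower in tRNA vector cells (medians 0.018 and 0.021). RRBP1, a ribosome-binding protein of the rough endoplasmic reticulum, gave 992, 1019, 977 and 813 in hairpin vector cells, 896, 1001, 1087 and 1098 in tRNA vector cells, and 851, 616, 890.2 and 627 in empty vector cells. The tRNA vector arrays were all above those of the empty vector, while hairpin vector array 4 lay within the empty vector range. The log2 fold change of RRBP1 was 0.36 ± 0.14 in hairpin vector cells (limma, adjusted p = 0.9999) and 0.47 ± 0.14 in tRNA vector cells (limma adjusted p = 1). Of its 4 other tested probe sets 1 shared the sign in hairpin vector cells and 3 in tRNA vector cells. TRAM2 stood at 0.17 ± 0.14 and 0.20 ± 0.14 in hairpin and tRNA vector cells.

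Enzymes that act on the entering chain made up 2 of the lists. Of 12 genes of the oligosaccharyltransferase, which adds sugar chains, 10 were higher in hairpin vector cells and 9 in tRNA vector cells (medians 0.037 and 0.086). KRTCAP2, a small subunit of it, stood at 0.19 ± 0.096 in hairpin vector cells and 0.20 ± 0.096 in tRNA vector cells. STT3A, a catalytic subunit, was at 0.55 ± 0.45 in hairpin vector cells, or 0.077 without empty vector array 2, and DDOST at 0.17 ± 0.092 in tRNA vector cells. Of 5 signal peptidase genes 2 were higher in hairpin vector cells and 4 in tRNA vector cells (medians -0.025 and 0.028). In that list SPCS3 (0.17 ± 0.13) and SEC11A (-0.065 ± 0.072) in hairpin vector cells, and SPCS2 (0.093 ± 0.067) and SPCS1 (0.091 ± 0.069) in tRNA vector cells, had the smallest p. The other tested probe set had the opposite sign for SEC11A in hairpin vector cells and for DDOST and KRTCAP2 in tRNA vector cells.

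Other routes into the membrane and the BiP system showed differences of similar size. In the ER membrane protein complex, an insertase, 3 of 10 genes were higher in hairpin vector cells and 5 in tRNA vector cells. EMC7 stood at -0.18 ± 0.11 and EMC1 at 0.12 ± 0.13 in hairpin vector cells, and EMC10 at 0.30 ± 0.15 and EMC7 at -0.15 ± 0.11 in tRNA vector cells. The other EMC7 probe set had the opposite sign in hairpin vector cells. In the pathway for tail-anchored proteins 5 of 6 measured genes were higher in hairpin vector cells and 6 in tRNA vector cells. GET3, its targeting ATPase, was at 0.18 ± 0.15 and SGTA at 0.15 ± 0.23 in hairpin vector cells, and GET4 at 0.27 ± 0.24 and BAG6 at 0.059 ± 0.10 in tRNA vector cells. Without single arrays GET3 ran from 0.045 (hairpin vector array 2 left out) to 0.25, SGTA from 0.00030 (hairpin vector array 2) to 0.33, and GET4 from 0.080 (empty vector array 4) to 0.49.

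HSPA5, which encodes BiP, the chaperone that SEC63 brings to the channel, averaged 9784 ± 1036 in hairpin vector cells, 10138 ± 1039 in tRNA vector cells and 9510.3 ± 516 in empty vector cells (SD, n = 4 each). Its log2 fold change in tRNA vector cells was 0.088 ± 0.090 (limma adjusted p = 1). Among 8 genes of BiP and its cochaperones 7 were higher in hairpin vector cells and 4 in tRNA vector cells. DNAJB9 stood at 0.13 ± 0.12 and DNAJB11 at -0.13 ± 0.14 in hairpin vector cells, and DNAJC10 at -0.13 ± 0.094 in tRNA vector cells.

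**Figure D4:**
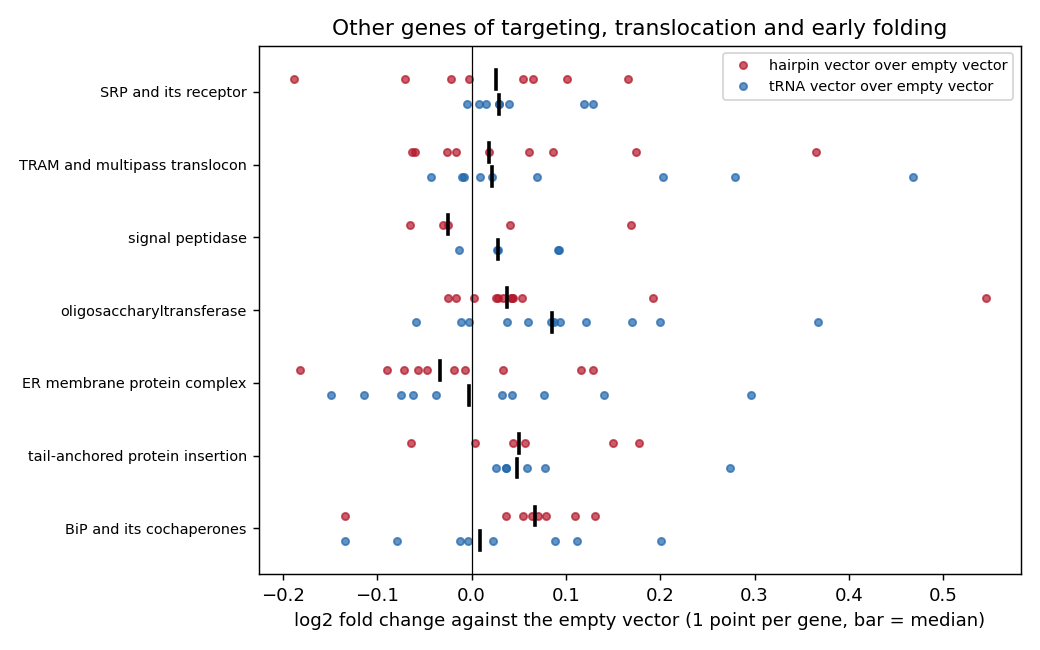
Log2 difference from the empty vector of 58 genes in 7 lists, 1 point per gene by its brightest probe set, for the hairpin vector and the tRNA vector, with a black bar at the median of each list. Medians lie between -0.033 and 0.086, and 0 genes passed limma in either comparison.

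The genes whose log2 signals followed those of the brightest SEC61A2 probe set most closely over the 12 arrays, among 13951 genes, were PLEKHA8 (Pearson r = 0.82, Spearman rho = 0.82), CHP1 (0.81 and 0.69), NOXRED1 (0.81 and 0.65), NOP9 (0.81 and 0.52) and TBK1 (0.80 and 0.64). They are the highest of many values over few arrays, which share processing, and are given as a description. The probe set used, 219499_at, did not show the order of 228747_at and correlated with it at r = -0.30. Its signal in tRNA vector array 3, 1386, lay far from the others of that group, at 1005 to 1061.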

How the data were processed

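RNA of 293T cells (12 micrograms of total RNA per sample, labelled with biotin) was hybridised to 12 arrays, 4 per vector. The authors deposited linear signal intensities made with MAS5, per the submitters' processing notes, which give no version. Each array had a 2% trimmed mean of 500.1, so the authors had scaled the arrays to a common level. The genome build behind the probe annotation is not given in the sources used here. Log2 values were used without an offset.

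The 62 control probe sets and 21845 dim ones, under the 40th percentile of mean log2 signal, were left out. Of all probe sets 41097 had 1 symbol, 1801 several and 11777 none; symbols, checked by Entrez identifier against RefSeq, changed for 0. A gene stood by its brightest tested probe set. With limma 3.58.1 (R 4.3.3), lmFit and eBayes with an intensity trend were run on the 3 groups together, two-sided with a threshold of 0.05, after a test on simulated data. Tables were made with Python 3.11.15.

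The members, lists, tests and named genes were chosen with earlier results of these data known. All members were named, and of each other list the 2 genes with the smallest p per vector. The number of arrays limits the precision. Samples of the same number deviated together, with r of 0.108 to 0.333 for hairpin against empty vector, 0.113 to 0.356 for hairpin against tRNA vector and 0.099 to 0.284 for tRNA against empty vector. All 4 numbers exceeded 0.1 in both hairpin comparisons, a pairing read from the data. At numbers 1 and 2 the same-number r was above that with any other number in each comparison. At number 4 of hairpin against empty vector it was 0.134, and another number reached 0.148. For tRNA against empty vector it was 0.099 against 0.101 at number 3 and 0.119 against 0.121 at number 4. Numbers 3 and 4 were thus not clearly paired. Alternatives were quantile normalization, no filter or a stricter one (60th percentile), an offset of 16, no intensity trend, only 2 groups, the replicate number or the control RNA level as a block, and leaving out arrays.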

Additional observations from a re-analysis of the deposited data

Results flagged for a closer look

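Of 87 groups of 4 arrays (29 probe sets in 3 groups), 7 held an array far from the other 3, with a gap, as a share of the whole range, above Dixon's 95% critical value, where chance flags about 5% of groups.

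With the hairpin vector, array 2 was the highest in 228747_at of SEC61A2 (1059, against 793 to 838 in the others) and the lowest in 201004_at of SSR4 (9594, against 11408 to 11686). Without it the log2 difference of 228747_at, hairpin over tRNA vector, was 0.58. Hairpin vector array 1 was the highest in 1552789_at of SEC62 (534, against 240.4 to 272) and in 201916_s_at of SEC63 (5416, against 4470.2 to 4559). With the tRNA vector, array 3 was the highest in 219499_at of SEC61A2 (1386, against 1005 to 1061) and the lowest in 217716_s_at of SEC61A1 (1595, against 1768 to 1772). With the empty vector, array 2 was the lowest in 203133_at of SEC61B (5040.1, against 5854 to 5991). The source of these values was not tested.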

How the results depend on the processing

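The count of member probe sets that passed limma against the empty vector was 0 under all alternatives with either vector. Over all probe sets 0 passed in each of the 3 comparisons in the fit without a block. With the control RNA level as a block, 3 passed for the hairpin vector and 4 for the tRNA vector against the empty vector, and 8 between the vectors. With the replicate block 6 passed between the vectors, and it changed no other call; without the arrays numbered 1, 1 passed. The smallest adjusted p of a member against the empty vector with the replicate block was 0.8995 with the hairpin vector and 0.297 with the tRNA vector. For 228747_at of SEC61A2, log2 values without single arrays were 0.58 to 0.76 between the vectors, 0.15 to 0.29 for the hairpin vector and -0.51 to -0.37 for the tRNA vector against the empty vector. Of 489 recomputed member values per vector, 32 with the hairpin vector (13 of 29 probe sets) and 42 with the tRNA vector (14 of 29) had the other sign, and between the vectors 43 (18 of 29) did, each by less than 1 SD between replicates; the cause was not tested. Leaving out 1 array moved the value by over 1.5 times or turned its sign for 27 of 29 members with either vector against the empty vector, 24 of 29 between the vectors, and 11 of 14 named genes of the other lists per vector. Of 476 values of named genes of the other lists, recomputed after their values were seen, 2 had the other sign. With quantile normalization, the sign of the tRNA vector against the empty vector turned for SEC63 201914_s_at (0.0033), SSR1 200891_s_at (-0.010), SSR3 222411_s_at (-0.0077). Without the 3 arrays numbered 1, the sign of the hairpin vector against the empty vector turned for SEC61B 203133_at (-0.038), SSR1 200889_s_at (-0.0054), SSR1 201894_s_at (0.020). Without the 3 arrays numbered 1, the sign of the tRNA vector against the empty vector turned for SEC62 208943_s_at (0.031), SEC62 1552789_at (0.033), SEC63 201914_s_at (0.036), SSR1 200889_s_at (-0.0060), SSR1 201894_s_at (0.036), SSR2 200652_at (0.029), SSR3 217790_s_at (0.0034). When single arrays were left out, the hairpin vector against the empty vector ran across 0 for SEC61A2 219499_at (-0.075 to 0.040), SEC61B 203133_at (-0.055 to 0.12), SEC62 1552789_at (-0.29 to 0.13), SEC62 1552790_a_at (-0.14 to 0.13), SEC62 208942_s_at (-0.011 to 0.17), SEC62 208943_s_at (-0.054 to 0.052), SEC63 201914_s_at (-0.37 to 0.17), SEC63 235395_at (-0.080 to 0.97), SSR1 200889_s_at (-0.024 to 0.050), SSR1 200890_s_at (-0.12 to 0.014), SSR1 200891_s_at (-0.16 to 0.060), SSR1 201894_s_at (-0.092 to 0.051), SSR3 217790_s_at (-0.33 to 0.027). When single arrays were left out, the tRNA vector against the empty vector ran across 0 for BAG6 213318_s_at (-0.018 to 0.15), SEC61A1 217716_s_at (-0.026 to 0.21), SEC61A2 219499_at (-0.032 to 0.12), SEC62 1552789_at (-0.20 to 0.13), SEC62 208942_s_at (-0.047 to 0.14), SEC62 208943_s_at (-0.083 to 0.0089), SEC62 225352_at (-0.012 to 0.078), SEC63 201914_s_at (-0.18 to 0.21), SRPRB 218140_x_at (-0.11 to 0.22), SSR1 200889_s_at (-0.0039 to 0.083), SSR1 200890_s_at (-0.11 to 0.026), SSR1 200891_s_at (-0.096 to 0.12), SSR1 201894_s_at (-0.094 to 0.038), SSR2 200652_at (-0.041 to 0.015), SSR3 217790_s_at (-0.21 to 0.16), SSR3 222411_s_at (-0.063 to 0.079).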
